A study of Mus musculus with 10 samples.

Results

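The aryl hydrocarbon receptor axis and the xenobiotic nuclear receptors were examined as 10 genes, chosen by symbol: the receptor Ahr and its dimerisation partner Arnt, the feedback genes Ahrr and Tiparp, the target enzymes Cyp1a1, Cyp1a2, Cyp1b1 and Nqo1, and the receptors Nr1i2 (PXR) and Nr1i3 (CAR). All 10 were measured, each by 1 probe set, among 19505 genes in all. The arrays were hybridised with RNA from organoids of BALB/c small intestine, grown as epithelial cultures in a basement membrane gel. Every culture was challenged with 20 ng/ml recombinant mouse TNF for 48 h. The vehicle group of 5 arrays received PEG at 2.625 mM with the TNF, and the pegtarazimod group of 5 arrays received 5 mg/ml of pegtarazimod, a PEG-linked peptide, in its place. Whether the 2 doses hold like amounts of PEG is not stated. The series holds no arrays of cultures without TNF, so every difference is between pegtarazimod and vehicle under TNF. The series describes the 5 samples of a group as biological replicates without saying what separated them, so the p-values measure the spread between these samples.

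AHR is a ligand-activated transcription factor that waits in the cytoplasm with chaperones, moves to the nucleus when it binds an aromatic ligand, and pairs there with ARNT to act on a short DNA element. In the intestine its ligands include plant indoles and microbial tryptophan products, and its classical target CYP1A1 degrades such ligands and so limits the signal, as do the repressor AHRR and the ADP-ribosyltransferase TIPARP. PXR and CAR are nuclear receptors that sense drugs and bile constituents, pair with RXR, and drive oxidising enzymes, conjugating enzymes and exporters in liver and gut.

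Promoter sequence from RefSeq (build GRCm38.p6) was matched by symbol for 9 of the 10 members, and Ahr was not matched. The 250 bases before the start site were searched for GCGTG, the core that AHR and ARNT recognise, on both strands (CACGC on the other). Of all 32851 windows of that length, 28.2% held the core, and 5 of the 9 members did. Shown are Cyp1a1, Ahrr and Tiparp as AHR targets, and Nr1i3 and Nr1i2 as the receptors that differed most, each written 5′ to 3′ with the core in capitals. The windows are chr9:57697363-57697612 on the plus strand for Cyp1a1, chr13:74292332-74292581 on the minus strand for Ahrr, chr3:65528197-65528446 on the plus strand for Tiparp, chr1:171213720-171213969 on the plus strand for Nr1i3 and chr16:38294825-38295074 on the minus strand for Nr1i2.
Cyp1a1: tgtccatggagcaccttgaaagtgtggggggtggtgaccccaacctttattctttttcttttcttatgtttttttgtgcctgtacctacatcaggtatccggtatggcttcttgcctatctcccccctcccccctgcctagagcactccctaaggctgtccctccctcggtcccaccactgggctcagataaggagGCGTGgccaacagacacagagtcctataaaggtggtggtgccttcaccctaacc
Ahrr: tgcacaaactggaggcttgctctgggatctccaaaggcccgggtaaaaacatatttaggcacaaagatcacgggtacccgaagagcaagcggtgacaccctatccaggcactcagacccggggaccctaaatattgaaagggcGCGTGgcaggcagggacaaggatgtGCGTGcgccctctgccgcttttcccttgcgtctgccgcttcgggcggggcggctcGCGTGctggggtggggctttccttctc
Tiparp: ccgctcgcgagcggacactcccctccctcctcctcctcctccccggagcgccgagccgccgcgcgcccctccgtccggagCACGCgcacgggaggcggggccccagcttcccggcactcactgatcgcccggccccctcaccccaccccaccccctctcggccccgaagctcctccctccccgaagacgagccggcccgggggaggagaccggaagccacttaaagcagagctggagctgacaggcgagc
Nr1i3: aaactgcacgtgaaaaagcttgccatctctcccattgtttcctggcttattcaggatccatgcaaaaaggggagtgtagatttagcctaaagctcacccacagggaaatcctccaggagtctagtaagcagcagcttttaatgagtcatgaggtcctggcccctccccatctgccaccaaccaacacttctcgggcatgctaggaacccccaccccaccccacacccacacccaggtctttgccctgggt
Nr1i2: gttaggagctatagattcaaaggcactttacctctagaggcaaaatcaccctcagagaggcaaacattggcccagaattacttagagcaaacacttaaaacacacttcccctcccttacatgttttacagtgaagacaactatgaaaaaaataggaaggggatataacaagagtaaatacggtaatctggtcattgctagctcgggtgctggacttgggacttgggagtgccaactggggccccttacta
Cyp1a1 held 1 core, 50 to 54 bases before its start, Ahrr 3 and Tiparp 1, while the Nr1i3 and Nr1i2 windows held none. The longer form TNGCGTG, which contains the core, was found in 4.10% of all windows and in Ahrr alone among the 9 members. The nuclear receptor half-site AGGTCA, searched on both strands, was in 14.0% of all windows and in 0 of the 9. The NRF2 element TGACNNNGC, on both strands, was in 10.2% of all windows and in Arnt alone, and TATAAA on the gene's own strand was in 7.59% and in Cyp1a1, Cyp1a2 and Nqo1. A match describes letters in this window and not a bound site, and the base composition of the windows differed, from 44.0% G and C for Nr1i2 to 75.2% for Tiparp.

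With pegtarazimod, Cyp1a1 was 2.35-fold and Nr1i3 2.40-fold higher, and these 2 of the 10 members passed the test. None was lower. At an unadjusted limma p below 0.05, which 9.31% of all genes met in the higher and 9.65% in the lower direction, 5 members were higher and none lower. Those shares are the background of every unadjusted count given here. Tested by limma with Benjamini-Hochberg adjustment over all 19505 genes at 0.05, 4.89% of genes changed, 2.5% higher and 2.39% lower. The median difference of the 10 members was 0.22 on the log2 scale, against 0.0029 for all genes. Nr1i2 and Nqo1 were 1.39-fold and 1.79-fold higher without passing (adjusted p = 0.0563 and 0.115), and the receptor Ahr itself differed by 0.19. Both groups of Cyp1a1 and Nr1i3 stood clear of each other, as did those of 3.35% of all genes in the higher direction (3.36% in the lower, and 0 members).

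**Figure D1:**
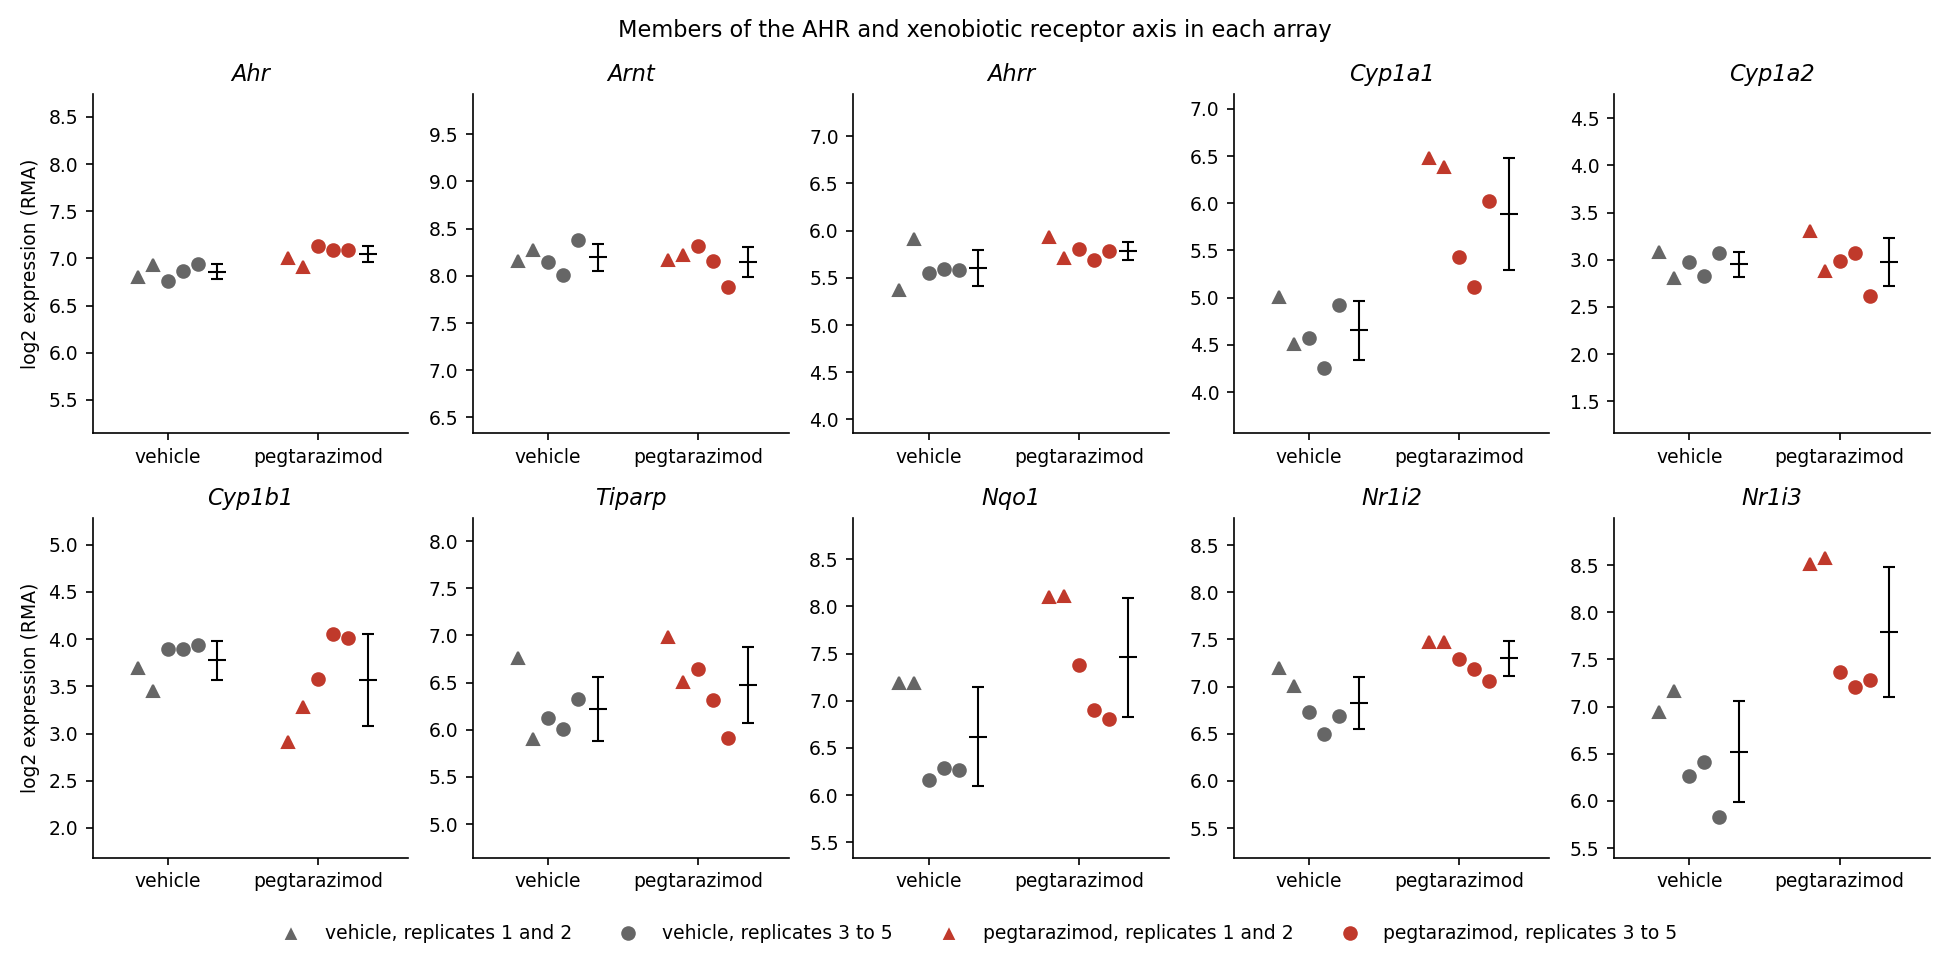
Log2 expression (RMA, vertical axis) of the 10 members in each array, with vehicle in grey and pegtarazimod in red, triangles for replicates 1 and 2 and circles for replicates 3 to 5, and bars for the mean and SD of 5 arrays. Every panel spans the same number of log2 units. Cyp1a1 and Nr1i3 have no overlap between groups, with means of 4.65 and 5.89 for Cyp1a1 and 6.52 and 7.79 for Nr1i3.

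The arrays were alike as a whole, with correlations over all genes of 0.973 to 0.994 and medians between 5.60 and 5.66 on the log2 scale. For several members replicates 1 and 2 of a group differed from replicates 3 to 5 of the same group, although the labels name no batch. The difference within each of these subsets, from a model with 4 groups, is therefore given for the members, and for other genes where a subset or a block for it changed the call. Within replicates 1 and 2, Cyp1a1, Nr1i3 and Nqo1 passed (2.93% of all genes were higher there), and within replicates 3 to 5 these 3 and Nr1i2 did (1.84% of all genes). A test of the difference between the subsets passed for none of the 10 members and for 0.0256% of all genes, and no member had an unadjusted p below 0.05 in it.

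The plot of differences by subset shows how the members compare.

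**Figure D2:**
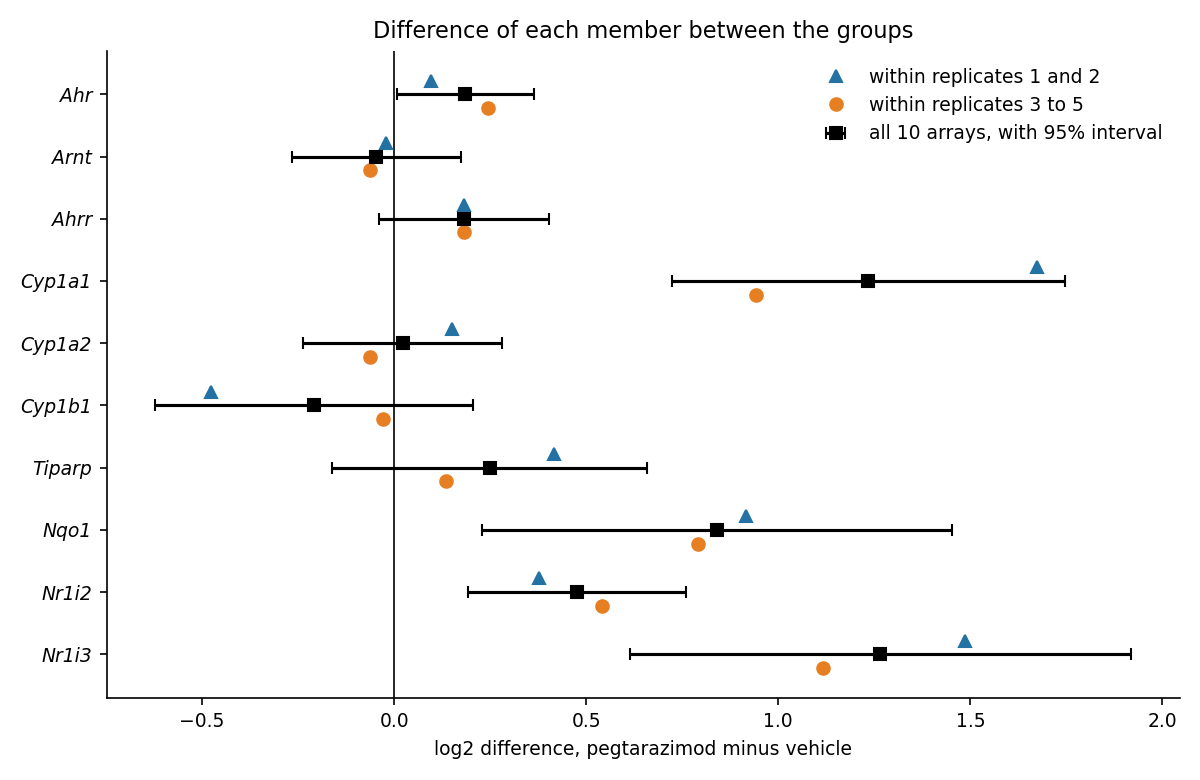
Log2 difference, pegtarazimod minus vehicle (horizontal axis), for each of the 10 members over all 10 arrays (squares, with the 95% interval of the limma fit), within replicates 1 and 2 (triangles) and within replicates 3 to 5 (circles). For Cyp1a1, Nr1i3, Nqo1, Nr1i2, Tiparp, Ahr and Ahrr both subsets lie above 0, whereas Cyp1a2 has 0.15 in one and -0.06 in the other.

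The receptor and its partner differed little. Ahr had log2 values of 6.80, 6.93, 6.76, 6.87 and 6.94 in vehicle replicates 1 to 5 and 7.01, 6.91, 7.13, 7.09 and 7.09 in pegtarazimod replicates 1 to 5. Only pegtarazimod 2 fell within the vehicle range, yet the difference was small. It was 0.19 ± 0.08 (SE, 95% interval 0.0077 to 0.36), and it did not pass (limma adjusted p = 0.242). Arnt, the partner that AHR shares with the hypoxia factors, lay between 8.01 and 8.38 in vehicle and between 7.88 and 8.31 with pegtarazimod. Its groups overlapped almost fully, and the interval of its difference ran from -0.27 to 0.17.

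The feedback genes did not pass either. Ahrr, which encodes a repressor that competes with AHR for ARNT, had values of 5.37 to 5.91 in vehicle and 5.69 to 5.94 with pegtarazimod. The difference was 0.18 ± 0.10 (SE, limma adjusted p = 0.382), and its groups overlapped. Tiparp, whose product modifies AHR and lowers its activity, ranged from 5.90 to 6.76 in vehicle and from 5.91 to 6.99 with pegtarazimod. Vehicle 1 and pegtarazimod 1 were the highest arrays of their groups, and the interval of the Tiparp difference, -0.16 to 0.66, spans both no change and an increase. The Ahrr window above held 3 core elements, and its difference was not resolved by 5 arrays a group.

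Cyp1a1, the oxidising enzyme most closely tied to AHR, was the member with the smallest p. It had log2 values of 5.01, 4.51, 4.57, 4.25 and 4.92 in vehicle replicates 1 to 5 and of 6.48, 6.39, 5.44, 5.11 and 6.02 in pegtarazimod replicates 1 to 5. All 5 pegtarazimod arrays exceeded all 5 vehicle arrays, with the narrowest gap between vehicle 1 and pegtarazimod 4. The signal was low, with all vehicle arrays and pegtarazimod 3 and 4 under the array medians of 5.60 to 5.66. It was above the lower quartile in every array. Cyp1a1 rose by 1.23 ± 0.24 (SE, 95% interval 0.72 to 1.75, limma adjusted p = 0.0095), from 4.65 ± 0.31 to 5.89 ± 0.60 (SD, n = 5 per group). The difference was 1.67 within replicates 1 and 2 and 0.94 within replicates 3 to 5 (limma adjusted p = 0.00281 and 0.0358), and the 2 values were not shown to differ (adjusted p = 0.668). It passed on leaving out any 1 array, at adjusted p between 0.00266 and 0.0310.

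The other CYP1 enzymes were dimmer still. Cyp1a2, the protein-coding neighbour of Cyp1a1 and mainly a liver enzyme, lay below the lower quartile of all 10 arrays, which was 3.84 to 3.90. Its values were 2.81 to 3.08 in vehicle and 2.62 to 3.31 with pegtarazimod, so its level cannot be told from background and no fold is given. Cyp1b1, which acts on steroids and aromatic compounds outside the liver, lay below the lower quartile in 2 vehicle and 3 pegtarazimod arrays. Its values were 3.45 to 3.94 in vehicle and 2.91 to 4.06 with pegtarazimod, and the lowest arrays of both groups were among replicates 1 and 2. The Cyp1b1 difference had a 95% interval of -0.62 to 0.21 at this low signal. No detection calls were used, and probes of related P450 genes may take up signal from one another.

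Nqo1, a quinone reductase driven by NRF2 as well as AHR, had values of 7.19, 7.19, 6.16, 6.29 and 6.27 in vehicle and 8.10, 8.11, 7.37, 6.90 and 6.81 with pegtarazimod, in replicates 1 to 5. Vehicle 1 and 2 were higher than pegtarazimod 4 and 5, so the groups overlapped, although within each subset every pegtarazimod array was above every vehicle array. Over 10 arrays the difference was 0.84 ± 0.29 (SE, 95% interval 0.23 to 1.45) and did not pass (limma adjusted p = 0.115). Within replicates 1 and 2 it was 0.92 and within replicates 3 to 5 it was 0.79, and both passed (adjusted p = 0.0062 and 0.00605). With the subsets as a block the difference of 0.84 had an SE of 0.11 and an adjusted p of 0.000161. The level of Nqo1 in replicates 1 and 2 exceeded that in replicates 3 to 5 by 0.95 in vehicle and by 1.08 with pegtarazimod, which is as large as the difference between the groups.

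Nr1i3, which encodes CAR, had the largest difference of the 10 members. Its log2 values were 6.94, 7.17, 6.27, 6.41 and 5.83 in vehicle replicates 1 to 5, and 8.51, 8.57, 7.37, 7.21 and 7.28 in pegtarazimod replicates 1 to 5. Every pegtarazimod array was above every vehicle array, but vehicle 2 and pegtarazimod 4 came within a small distance of each other. Nr1i3 rose by 1.27 ± 0.30 (SE, 95% interval 0.61 to 1.92, limma adjusted p = 0.0297), from 6.52 ± 0.54 to 7.79 ± 0.69 (SD, n = 5 per group). Within replicates 1 and 2 it differed by 1.49 and within replicates 3 to 5 by 1.12 (limma adjusted p = 0.00038 and 0.000737), and with the subsets as a block the adjusted p was 1.36e-05. Over all arrays the call was lost on leaving out vehicle 3, 4 or 5 or pegtarazimod 1 or 2 (limma adjusted p = 0.0842, 0.0743, 0.0775, 0.0732 and 0.0750), and with an intensity trend and robust priors (0.0917).

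Nr1i2, which encodes PXR, had a smaller difference. It had values of 7.19, 7.003, 6.73, 6.50 and 6.69 in vehicle and of 7.47, 7.47, 7.29, 7.19 and 7.06 with pegtarazimod, in replicates 1 to 5. Only vehicle 1 reached into the pegtarazimod range. The difference was 0.48 ± 0.13 (SE, 95% interval 0.19 to 0.76) and narrowly missed the threshold (limma adjusted p = 0.0563). It passed within replicates 3 to 5 (0.54, adjusted p = 0.0193) and not within replicates 1 and 2 (0.38, adjusted p = 0.161), and those values were not shown to differ (adjusted p = 0.890). With the subsets as a block it passed (adjusted p = 0.00366), as it did without vehicle 1 (0.0222) or without pegtarazimod 5 (0.0472).

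**Figure D3:**
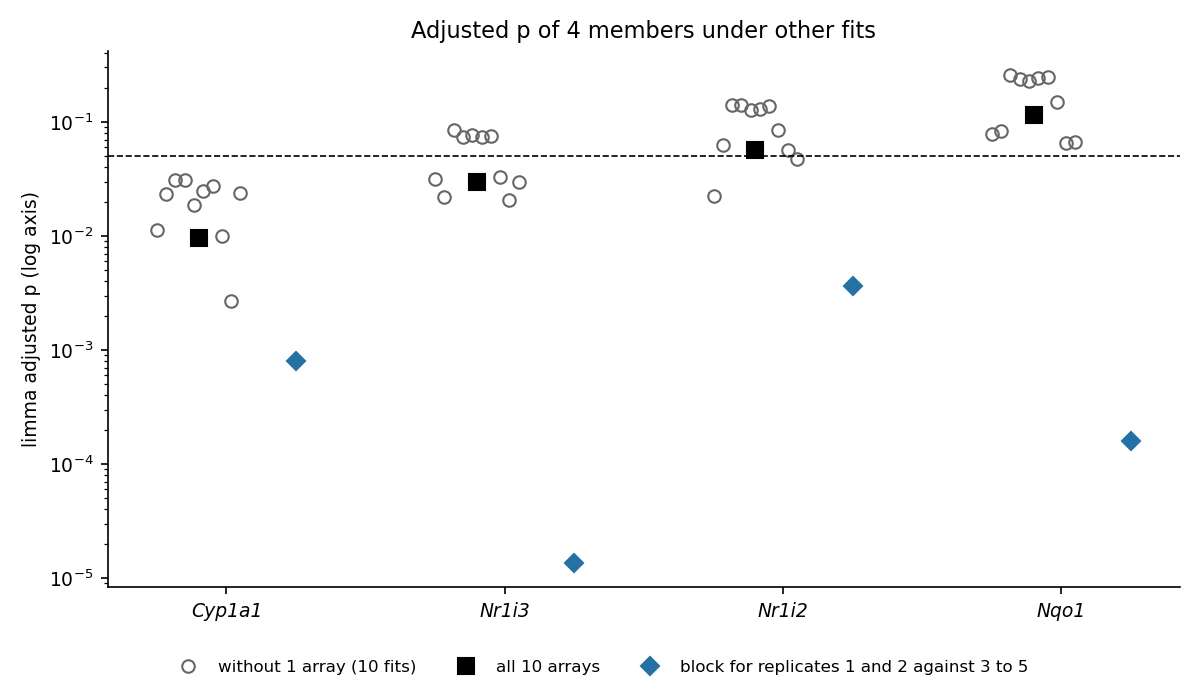
Limma adjusted p on a log axis for Cyp1a1, Nr1i3, Nr1i2 and Nqo1 over all 10 arrays (squares), without 1 array in each of 10 fits (open circles) and with a block for replicates 1 and 2 against 3 to 5 (diamonds), with the threshold of 0.05 dashed. Cyp1a1 stays under the threshold in all of these fits, Nr1i3 crosses it in 5 of the 10, and all 4 genes lie under it with the block.

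Of 28 measured target genes of PXR and CAR 12 were higher and none lower, at a median difference of 0.57 against 0.0029 for all genes. The share of all genes that passed as higher was 2.5%, as above. By unadjusted limma p below 0.05 the counts were 20 and 0, against shares of 9.31% and 9.65% of all genes. Cytochrome P450 genes made up 6 of the 12 (of 12 measured), conjugating or hydrolysing enzymes 3 (of 7), exporters and uptake carriers 2 (of 5) and other genes 1 (of 4). The increases ran from 1.39-fold to 4.88-fold. Within replicates 1 and 2 the count was 18 of 28, and within replicates 3 to 5 it was 6 of 28, at medians of 0.86 and 0.33.

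Ces2a, a carboxylesterase that hydrolyses drug esters, had values of 9.40, 8.997, 8.24, 8.81 and 8.96 in vehicle and 11.57, 11.44, 10.89, 10.84 and 11.11 with pegtarazimod. Its groups were further apart than those of any other gene named here, at a rise of 2.29 ± 0.19 (SE, limma adjusted p = 4.29e-05). Abcb1a, a P-glycoprotein exporter of the apical membrane, had 10.65, 10.25, 10.11, 10.18 and 10.61 in vehicle and 11.27, 11.18, 11.05, 10.99 and 11.05 with pegtarazimod, a rise of 0.75 ± 0.12 (SE, limma adjusted p = 0.0032). The pegtarazimod arrays of Abcb1a were close together, and all were above the vehicle arrays. Cyp3a25, a drug-oxidising P450 of the PXR-regulated family, rose by 1.28 ± 0.23 (limma adjusted p = 0.00665), from 7.61 ± 0.39 to 8.89 ± 0.51 (SD, n = 5 per group), without overlap. Within replicates 1 and 2 it differed by 1.86 (limma adjusted p = 0.00199), and within replicates 3 to 5 by 0.89 without passing (adjusted p = 0.0583). The gap between these subsets had an unadjusted limma p of 0.0207 (adjusted p = 0.530). Cyp2c66, which belongs to an intestinal P450 family, had 8.63 to 10.13 in vehicle and 10.40 to 11.52 with pegtarazimod and rose 2.83-fold (limma adjusted p = 0.00737), again without overlap. The classical CAR target Cyp2b10 had a difference of 0.78 and missed the threshold (limma adjusted p = 0.104), and the PXR target Cyp3a11 rose by 0.97 (0.0375), both named after their values were seen.

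**Figure D4:**
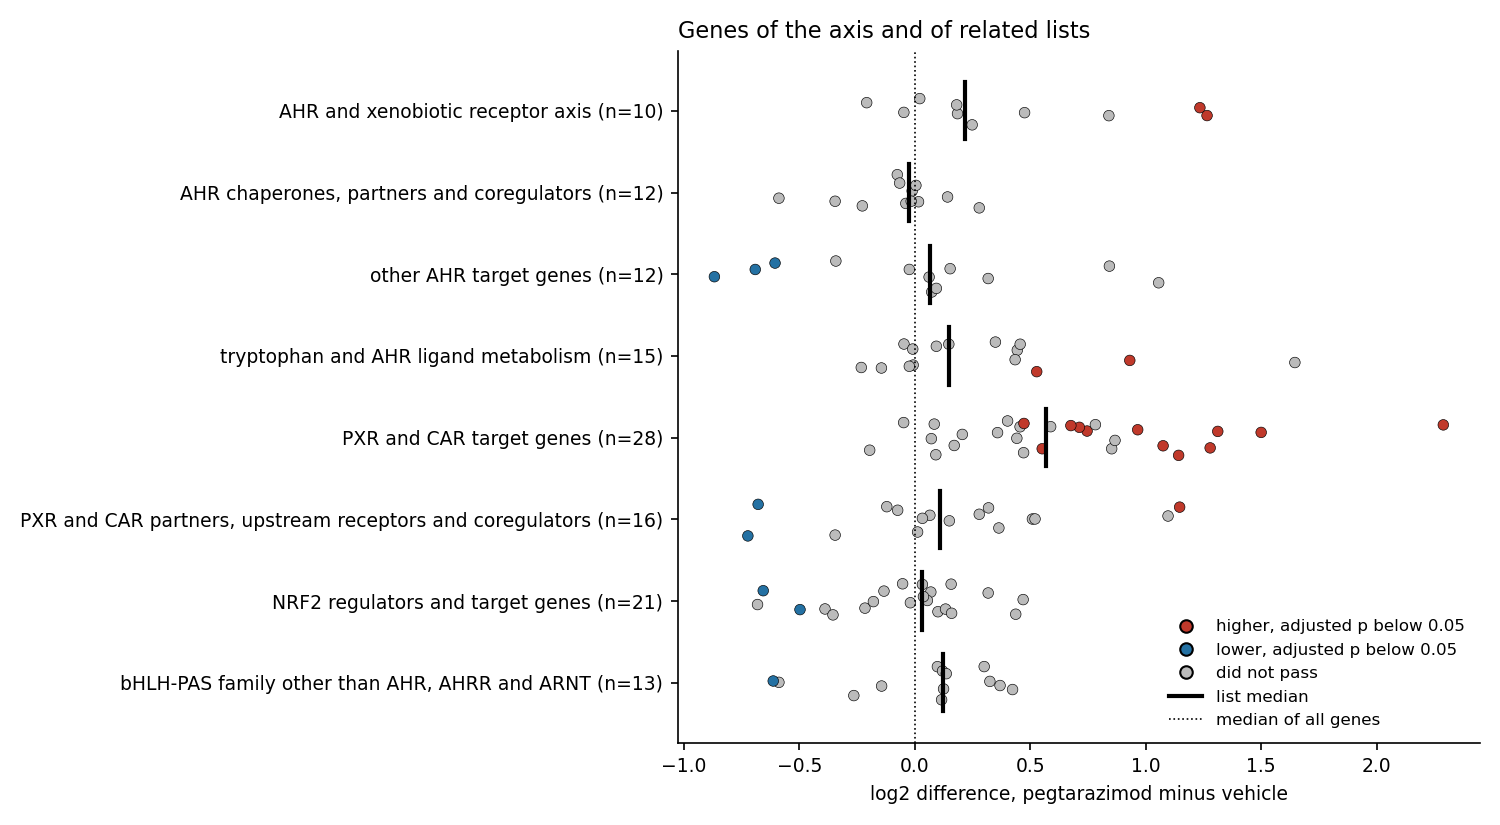
Log2 difference, pegtarazimod minus vehicle (horizontal axis), of each gene in the axis and in 7 related lists, coloured red or blue where higher or lower at a limma adjusted p below 0.05 and grey where not. Thick bars are list medians and the dotted line is the median of all genes. PXR and CAR target genes have 12 red points of 28, and other AHR target genes have 3 blue points and no red one of 12.

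Of 12 measured genes reported as AHR targets besides the members, none was higher and 3 were lower, with 2 and 3 at an unadjusted limma p below 0.05 and a median difference of 0.07. The P450 gene Cyp2s1, named after its value was seen, had the largest difference of these, 1.06, without passing (limma adjusted p = 0.115). Znrf3, a ubiquitin ligase that removes Wnt receptors, fell by 0.60 ± 0.10 (SE, limma adjusted p = 0.00429), with all pegtarazimod arrays (7.88 to 8.31) under all vehicle arrays (8.63 to 8.85). Slc7a5, a transporter of large neutral amino acids such as tryptophan, and Stc2, a secreted glycoprotein, fell by 0.87 and 0.69 (limma adjusted p = 0.0275 and 0.0349). Slc7a5 differed by -1.25 within replicates 1 and 2 and by -0.61 within replicates 3 to 5, where it did not pass (adjusted p = 0.0722). Stc2 differed by -1.20 and -0.35, again without passing in replicates 3 to 5 (0.272), and the gap between the subsets had an unadjusted p of 0.0323 for Slc7a5 and 0.00322 for Stc2 (limma adjusted p = 0.598 and 0.372). The adjusted p of Slc7a5 was above the threshold without vehicle 3 (0.0770), 4 or 5 or pegtarazimod 2 or 5, and that of Stc2 on leaving out any array but vehicle 4, vehicle 5 and pegtarazimod 3 (up to 0.0928, without pegtarazimod 2). The number of lower genes was 1 in place of 3 without vehicle 3, pegtarazimod 2 or pegtarazimod 5. Scin, an actin-severing protein induced through AHR, had vehicle values of 6.86 to 7.60 and pegtarazimod values of 7.42 to 8.76. It differed by 0.84 (limma adjusted p = 0.0924) and passed within replicates 1 and 2 (1.33, adjusted p = 0.000288), within replicates 3 to 5 (0.52, adjusted p = 0.0358) and with the subset block (0.00142). The gap between the subsets of Scin had an unadjusted limma p of 0.00114 (adjusted p = 0.279). In the subsets the list had 3 and 2 higher genes.

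The chaperones, partners and coregulators of AHR held no gene that passed among 12 measured, and 0 higher and 2 lower at an unadjusted limma p below 0.05. These were the chaperone Hsp90aa1, at -0.34 (limma adjusted p = 0.104, and 0.0465 with the subset block), and the ARNT paralogue Arnt2, at -0.59 (0.107). Arnt2 passed with the subset block (limma adjusted p = 0.00142), within replicates 1 and 2 (-0.69, 0.0157) and within replicates 3 to 5 (-0.52, 0.0397). In the family of related bHLH-PAS factors 1 of 13 passed, with none higher (3 higher and 3 lower at an unadjusted limma p below 0.05). It was the clock factor gene Npas2, which fell by 0.61 (limma adjusted p = 0.0268) and lost its call without vehicle 1, 2 or 3 (adjusted p up to 0.0738) and within replicates 1 and 2 (-0.58, 0.0955). Hif1a, which shares ARNT with AHR, had values of 8.82 to 9.21 in vehicle and 9.22 to 9.58 with pegtarazimod, and did not pass (0.37, limma adjusted p = 0.0613), except with the subset block (0.0297).

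Among 15 measured genes of tryptophan and AHR ligand metabolism 2 were higher and none lower (7 and 0 at an unadjusted limma p below 0.05). Maoa, which oxidises serotonin and other amines, rose by 0.93 (limma adjusted p = 0.0243), from 7.80 to 8.91 in vehicle to 8.96 to 9.94 with pegtarazimod. Kyat1, a kynurenine aminotransferase, rose by 0.53 (adjusted p = 0.0269), with vehicle 1 inside the pegtarazimod range. The call of Maoa was lost without vehicle 3 (limma adjusted p = 0.0661), 4 or 5 or pegtarazimod 1 or 2, and that of Kyat1 without vehicle 2, 3 (0.0780), 4 or 5 or pegtarazimod 1, 2 or 5. Maoa also lost its call with an intensity trend and robust priors (limma adjusted p = 0.0544). Within replicates 3 to 5 Kyat1 differed by 0.46 and missed the threshold (limma adjusted p = 0.0722). Maob, the second amine oxidase, had vehicle values of 7.11, 6.84, 5.54, 5.13 and 5.69 and pegtarazimod values of 8.88, 8.76, 7.46, 6.57 and 6.87. It split by replicate as Nqo1 did and missed the threshold over all arrays (1.65, limma adjusted p = 0.0605), but passed within replicates 1 and 2 (1.85) and within replicates 3 to 5 (1.51), and with the subset block (1.51e-05). Ddc, which makes serotonin and dopamine, differed by 0.44 without overlap between its groups (limma adjusted p = 0.0529, and 0.0332 with the subset block). It also passed with quantile normalisation (0.0496), arrays centred on their median (0.0491), an intensity trend and robust priors (0.0307) and array weights (0.0391). Within replicates 1 and 2 and within replicates 3 to 5 Ddc did not pass (limma adjusted p = 0.287 and 0.174).

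Of 21 measured NRF2 regulators and targets none was higher and 2 were lower (2 and 4 at an unadjusted limma p below 0.05), with a median of 0.03 beside the 0.84 of Nqo1. The exporter gene Abcc1 fell by 0.66 (limma adjusted p = 0.00863), from values of 7.69 to 7.85 in vehicle to 6.61 to 7.34 with pegtarazimod. Within replicates 1 and 2 it differed by -0.94, and within replicates 3 to 5 by -0.47 without passing (limma adjusted p = 0.0926). The haem oxygenase gene Hmox1 fell by 0.50 (adjusted p = 0.0391), and this call was lost on leaving out any array but vehicle 5, pegtarazimod 2 and pegtarazimod 4 (limma adjusted p up to 0.111, without vehicle 3) and within replicates 1 and 2 (-0.32, 0.442). Gclm, a subunit of the enzyme that starts glutathione synthesis, and Nqo2, the paralogue of Nqo1, differed by 0.44 and 0.47 and did not pass (limma adjusted p = 0.0676 and 0.0689). With the subset block both did (0.0353 and 0.0378), Gclm passing within replicates 1 and 2 (0.70) and Nqo2 within replicates 3 to 5 (0.72). Both also passed with an intensity trend and robust priors (limma adjusted p = 0.0416 and 0.0429).

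Partners and upstream regulators of PXR and CAR went both ways. Of 16 measured 1 was higher and 2 were lower (5 and 3 at an unadjusted limma p below 0.05), at a median of 0.11. The lipid-sensing receptor gene Ppara rose from 6.43 ± 0.38 to 7.58 ± 0.44 (SD, n = 5 per group, limma adjusted p = 0.00709). The forkhead factor genes Foxa2 and Foxa1 fell by 0.72 and 0.68 (limma adjusted p = 0.00181 and 0.0321). Foxa2 was below 6.97 in every pegtarazimod array and at 7.24 or above in every vehicle array, while the call of Foxa1 was lost without vehicle 2, 3 (limma adjusted p = 0.0917), 4 or 5 or pegtarazimod 1 or 2. The bile acid receptor gene Nr1h4 was higher by 1.10 without passing (limma adjusted p = 0.0514), with vehicle 1 and 2 (7.13 and 7.25) inside the pegtarazimod range. It passed within replicates 1 and 2 (1.14, limma adjusted p = 0.00115), within replicates 3 to 5 (1.07, 0.000546) and with the subset block (1.11e-05). With arrays centred on their median Nr1h4 passed too (limma adjusted p = 0.0474), but not with an intensity trend and robust priors (0.132).

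Cell type markers moved with these results. Of 10 epithelial markers, all measured, 2 were higher and none lower, namely Lgals4 (0.67, limma adjusted p = 0.000537) and Krt19 (0.33, 0.0350), while Epcam lay between 10.63 and 10.85. Their summed log2 level was 102.3 to 103.3 in vehicle and 103.7 to 104.3 with pegtarazimod. Of 13 enterocyte markers 6 were higher with pegtarazimod and none lower (11 and 0 at an unadjusted limma p below 0.05), and their summed log2 level was 107 to 115 in vehicle and 118 to 131 with pegtarazimod. Of 9 crypt stem cell markers 7 were lower, with summed levels of 80.8 to 83.6 and 67.6 to 74.2. These 3 marker sums separated the groups without overlap, and the part of these cell types in the differences of Cyp1a1, Nr1i3 and the PXR and CAR targets was not tested. In whole cultures, more cells of a type and more RNA per cell cannot be told apart.

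Summed markers of cells outside the epithelium overlapped between the groups. Summed over 8 hepatocyte markers the log2 level was 39.7 to 41.5 in vehicle and 40.1 to 41.8 with pegtarazimod, and Cyp7a1 was below the lower quartile in all 10 arrays. The sum of 7 fibroblast markers was 33.2 to 34.97 and 33.5 to 35.8, with Vim the 1 that passed (0.63, limma adjusted p = 0.0240), and Dcn below the lower quartile of every array. For 8 immune markers it was 34.8 to 36.1 and 34.95 to 36.3, and for 6 endothelial markers 21.4 to 22.9 and 21.3 to 22.3. No value on these arrays is 0, so no marker can be called absent. By limma none of the hepatocyte, immune and endothelial markers passed, and at an unadjusted p below 0.05 there were 1, 1 and 0 higher and 1, 1 and 1 lower.

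**Figure D5:**
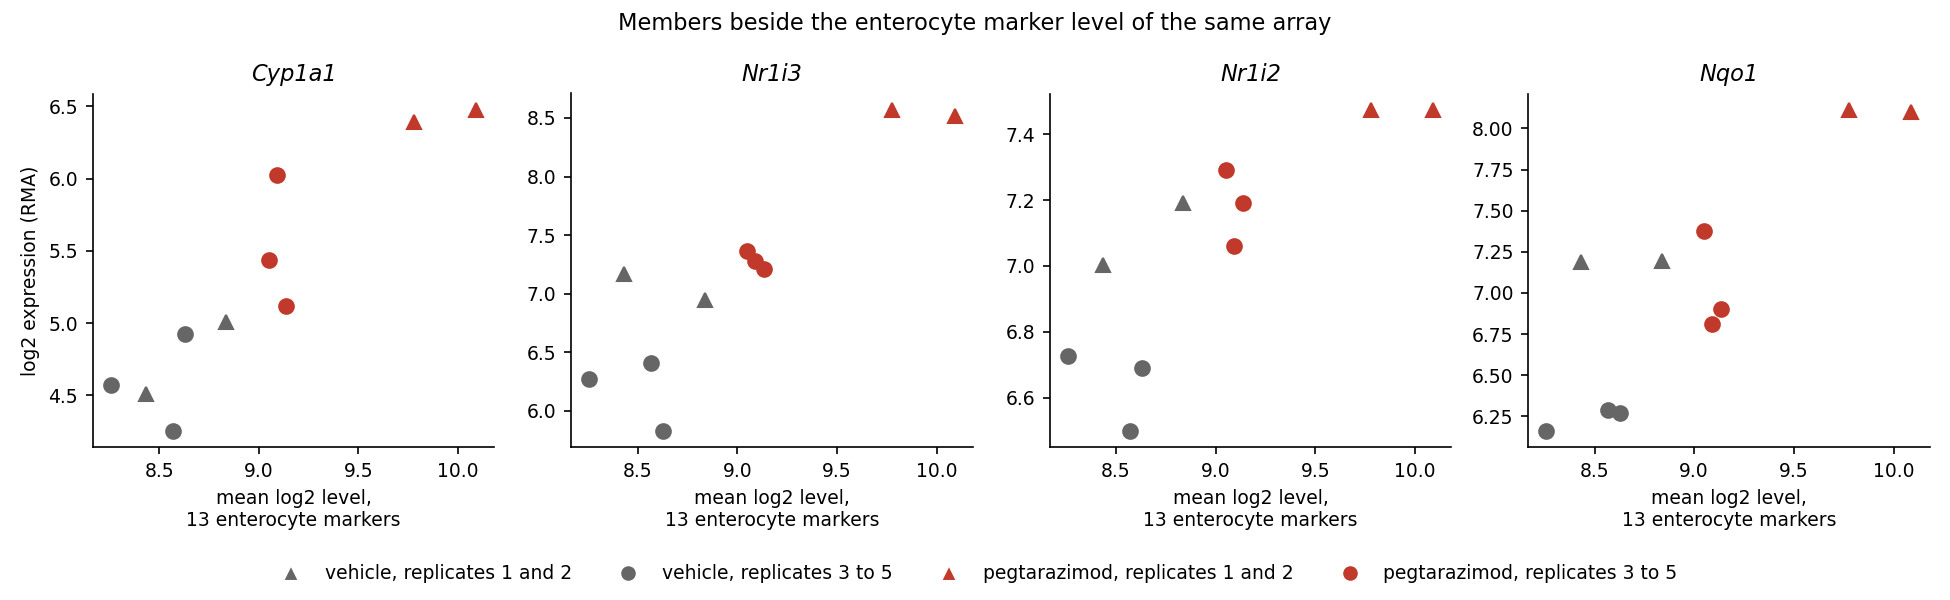
Log2 expression (RMA, vertical axis) of Cyp1a1, Nr1i3, Nr1i2 and Nqo1 against the mean log2 level of 13 enterocyte markers in the same array (horizontal axis), with vehicle in grey, pegtarazimod in red, triangles for replicates 1 and 2 and circles for replicates 3 to 5. Pegtarazimod 1 and 2 have the highest marker levels, 10.09 and 9.78, and also the highest Cyp1a1, Nr1i3, Nr1i2 and Nqo1. Among the vehicle arrays, vehicle 1 has the highest marker level (8.84) and the highest Cyp1a1, Nr1i2 and Nqo1. The order differs for Nr1i3, which is highest in vehicle 2 (7.17, marker level 8.43) and lowest in vehicle 5 (5.83, marker level 8.63).

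The genes most like the 3 members with the smallest p were taken by Pearson r over the 10 arrays after each group's mean was removed, among 14627 genes above the lower quartile. For Cyp1a1 these were the kinase gene Map2k2 (r = 0.960), the peroxisomal thiolase gene Acaa1a (0.956) and the cytokine receptor gene Il17rc (0.953). With the means of the replicate subsets removed as well, they kept r of 0.959, 0.918 and 0.937. For Nr1i3 they were Afp, a fetal plasma protein gene (r = 0.987), Gucd1 (0.978) and the retinol dehydrogenase gene Dhrs9 (0.978), and with the subset means removed r was 0.811, 0.704 and 0.899. For Nr1i2 they were Adgrg7 (r = 0.965), Dab1 (0.963) and Naip5 (0.961), with 0.859, 0.766 and 0.791 after the subset means were removed. All arrays entered each r, and the split of replicates is part of the values for Nr1i3 and Nr1i2, so these are descriptions of likeness in 10 arrays.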

How the data were processed

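RNA of 10 organoid samples was measured on single-colour arrays, 5 per group, with groups and replicate numbers taken from the sample titles. The authors deposited log2 values for each probe set, made with oligo and RMA (background correction, quantile normalisation and summarisation), per the submitters' processing notes. Tool versions and the genome build: not given in the sources used here. Quantile normalisation hides a shift shared by most genes. Of 22203 probe sets 19572 had 1 symbol in the platform annotation, 0 had several and 2631 had none and were left out. For 55 genes with several probe sets the one with the highest mean was used, which leaves 19505 genes.

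The groups were compared without covariates by lmFit and eBayes of limma 3.58.1 under R 4.3.3, and p-values were adjusted over all genes by Benjamini-Hochberg at 0.05. The fit was tested on simulated data with independent noise, which lacked the split of replicates seen here and so do not cover it. Genes named are the members, up to 4 genes with the smallest p per list, and the 3 genes most like each of 3 members. Some cell type markers are also named, and Cyp2b10, Cyp3a11 and Cyp2s1 were picked after their values were seen. The members and lists were chosen with earlier results of these data known. Alternatives were other normalisation, centring, filters on dim genes, trend with robust priors, array weights, blocks, the subsets, mean over probe sets, all probe sets and leaving out each array. The number of arrays limits the precision. Plots used matplotlib 3.10.9 in Python 3.11.15.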

Additional observations from a re-analysis of the deposited data

Results flagged for a closer look

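The 10 members and 27 named genes of the related lists were checked in each group for an array far from the other 4, by whether its gap to the nearest exceeded 0.71 of the group's range, which chance alone gives in about 1 of 20 groups. Of the 74 groups checked 1 exceeded it. Abcc1 was 6.61 in pegtarazimod 1, while the other pegtarazimod arrays lay between 7.15 and 7.34, a gap of 0.736 of the range. Without pegtarazimod 1 Abcc1 still passed, as it did on leaving out any other array (limma adjusted p = 0.00646 to 0.0240), but within replicates 3 to 5 it did not (-0.47, adjusted p = 0.0926). None of the 10 members had such an array in either group.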

How the results depend on the processing

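Cyp1a1 kept its direction and its call under every alternative that gave a value, and Ahr, Ahrr, Cyp1b1 and Tiparp stayed on the same side of the threshold without changing direction. Nr1i2, at 0.48, passed with arrays centred on their median (0.50, limma adjusted p = 0.0498), without the dimmest 25% of genes (0.48, 0.0484), without the dimmest 50% (0.48, 0.0349), with an intensity trend and robust priors (0.48, 0.0385) and within replicates 3 to 5 (0.54). Nr1i3 lost its call with the trend (1.27, adjusted p = 0.0917). Cyp1a2 turned to -0.064 within replicates 3 to 5. The causes were not tested. With the block for replicates 1 and 2 against 3 to 5, 1820 genes changed and 4 members and 2 other AHR targets were higher, the added members being Nqo1 (0.84) and Nr1i2 (0.48). The labels' replicate numbers were not taken as pairs. Same-numbered arrays correlated at 0.0993 to 0.310 after group means were removed. Vehicle 1, 2, 4 and 5 and pegtarazimod 1, 2, 3 and 4 correlated best with their own number in the other group. Vehicle 3 correlated best with pegtarazimod 4, and pegtarazimod 5 with vehicle 3. Whether the numbers mark pairs was not tested, and a block for the replicate numbers was fitted as an alternative. With that replicate block 1606 genes changed (among the other named genes Arnt2, Scin, Ddc, Maob and Nr1h4 gained a call), 4 members and 2 other AHR targets were higher, Nqo1 (0.84) had an adjusted p of 0.000755 and Nr1i2 (0.48) one of 0.00926. Nqo1 passed at 0.92 within replicates 1 and 2 and at 0.79 within replicates 3 to 5, where 4 members, 6 PXR and CAR targets and 2 other AHR targets were higher, against 3 other AHR targets within replicates 1 and 2. On leaving out 1 array at a time the changed genes were 437 to 1245 (954 over all arrays), with the counts far under 954 being 437, 498 and 562 on omitting vehicle 3, 4 or 5 and 552 and 522 on omitting pegtarazimod 1 or 2, the higher members 1 to 3, PXR and CAR targets 8 to 14, and other AHR targets 0 to 1 higher and 1 to 3 lower. Nr1i3 ranged from 1.07 to 1.43, Nr1i2 from 0.39 to 0.57, Arnt from -0.093 to 0.020 and Cyp1a2 from -0.061 to 0.11. Cyp1a2 and Cyp1b1 have no value without the dimmest 25% of genes, and neither they nor Cyp1a1 without the dimmest 50%. The lists and their genes were put through these alternatives after the data were seen.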
